A study of Mus musculus with 55 samples.

Results

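Pck1 and Pck2 encode the cytosolic and the mitochondrial phosphoenolpyruvate carboxykinase, and DNA methylation at both genes was followed in mouse liver from late gestation to adulthood. The members were chosen by position among the cytosines that the study kept. By its methods, CpGs under 10% in all samples of the genome-wide assay had been removed, so cytosines unmethylated throughout could not become members there. They were the CpGs of the locus-specific assay at the Pck1 promoter (5) and the Pck2 promoter (10), together with every cytosine of the genome-wide assay from 5 kb upstream of each gene to its end (5 for Pck1 and 6 for Pck2). With 1 Pck1 cytosine read by both assays, these were 25 of the 271486 distinct CpG cytosines with deposited values.

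All animals were labelled C57BL/6, all tissue was liver, and age was the variable compared, with no treatment, mutant or transgene in any label. Locus-specific bisulfite sequencing (LSBS), in which converted DNA is amplified at selected loci and sequenced, covered 166 CpGs at 17 loci in 31 livers. The ages were late gestation (embryonic, E18.5, n = 5), postnatal days P1 (n = 5), P5 (n = 4), P10 (n = 4), P15 (n = 3) and P20 (n = 5), and 6 months (6mo, n = 5). Reduced representation bisulfite sequencing (RRBS) samples CpGs near cuts of the enzyme MspI (CCGG). After the study's filters it gave values at 271325 cytosines, in libraries from E18.5 (n = 5), P1 (n = 9) and 9 weeks (9wk, n = 10). The 9 libraries of P1 were placed by their age label, although their titles also carry the tag 6Mo, and every P1 value of RRBS rests on that label. By the study's methods the 9wk mice of RRBS were male and its mice ate a defined chow with fat from coconut oil, while the sex of the younger RRBS libraries is not given in the sources used here, so that age and sex composition cannot be told apart in that assay.

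Phosphoenolpyruvate carboxykinase turns oxaloacetate into phosphoenolpyruvate, a controlled step of gluconeogenesis, by which liver makes glucose from lactate, glycerol and amino acids. In rodents the fetus receives glucose from the mother and the hepatic cytosolic enzyme appears around birth. Transcription of Pck1 is classically driven by glucagon through cyclic AMP and the factor CREB, which binds a cyclic AMP response element in the proximal promoter, and is repressed by insulin. The mitochondrial enzyme is regarded as less hormone-responsive. Fetal liver also houses blood formation, which leaves the organ around and after birth. By the study's histology, hematopoietic cells were still a large part of the liver at P5 and a small part by P10. In DNA from whole liver, a change in the share of a cell type and a change within cells cannot be told apart.

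The stretches that carry the measurements are shown here on the plus strand of build mm9, with the measured CpGs in capitals. The first holds all 5 Pck1 promoter CpGs, at chr2:172978435-172978566. The second holds the first 3 of the 10 Pck2 promoter CpGs, at chr14:56159013-56159132. The third holds the Pck2 cytosines read by RRBS, inside coding exon 2 at chr14:56161243-56161346.
Pck1 promoter: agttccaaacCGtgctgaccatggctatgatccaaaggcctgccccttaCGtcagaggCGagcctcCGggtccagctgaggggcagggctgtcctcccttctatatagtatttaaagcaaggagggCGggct
Pck2 promoter: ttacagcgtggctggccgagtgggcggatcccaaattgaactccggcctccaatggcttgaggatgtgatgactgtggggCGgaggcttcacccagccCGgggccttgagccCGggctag
Pck2 exon 2: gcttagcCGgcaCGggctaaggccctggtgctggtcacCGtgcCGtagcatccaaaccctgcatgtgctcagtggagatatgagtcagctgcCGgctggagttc

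The 5 Pck1 CpGs were all those that mm9 holds over the 117 bases from the first to the last, and the 10 Pck2 CpGs were all those over 119 bases. Relative to the start of Pck1 in GENCODE vM1 (chr2:172978549-172984774, plus strand), the Pck1 CpGs lay 104, 65, 56 and 48 bp upstream and 12 bp downstream. The last therefore falls in exon 1 by this annotation, and 13 bp upstream of the start that RefSeq (GRCm38.p6) gives. The CpG 65 bp upstream (172978484) lies inside TTACGTCA, at chr2:172978481-172978488, which differs in a single letter from the palindrome TGACGTCA bound by CREB. On either strand TTACGTCA occurred in 0.499% of the 32851 RefSeq promoter windows of 300 bases, and TGACGTCA in 1.79%. The Pck2 window held neither word, and no match says only that these letters are not in that window. TATATA, found in 5.67% of the windows, occurred in that of Pck1 and not in that of Pck2. The GC-box word GGGCGG, found in 35.7%, occurred in both. It contains the last of the measured CpGs of Pck1 and the first of those of Pck2. The Pck1 window held 6 CpGs and the Pck2 window 9, against a median of 7. The first Pck2 CpG lay 10 bp upstream of the gene start (chr14:56159103-56168854, plus strand) and the other 9 from 8 to 108 bp downstream, in the 5′ UTR of exon 1.

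At the Pck1 promoter, methylation was lower in the adult than before birth at all 5 CpGs. Averaged over these CpGs, methylation was 53.3% at E18.5, 56.9% at P1, 49.6% at P5, 36.9% at P10, 28.9% at P15, 22.5% at P20 and 21.5% at 6mo. At the CpG inside TTACGTCA, the 5 livers of E18.5 measured 58.2%, 58.4%, 58.9%, 60.5% and 60.7%. The 5 livers of 6mo measured 20.8%, 22.7%, 22.9%, 23.0% and 25.3% there. Every liver of 6mo was below every liver of E18.5, with no overlap. At the CpG 48 bp upstream (172978501), levels were 56.2%, 57.9%, 58.1%, 58.7% and 59.6% at E18.5 and 19.5%, 20.1%, 21.5%, 22% and 23.9% at 6mo.

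Calls required a difference over 5 percentage points and, over all 166 LSBS CpGs, a Benjamini-Hochberg adjusted limma p of at most 0.1. All 5 Pck1 CpGs were called lower at 6mo than at E18.5, where 17.5% of all LSBS CpGs were called lower and 31.9% were called in either direction. The LSBS shares of calls, here and below, include CpGs too low at every age to differ by over 5 points. These were 19 of Nfkb1, 2 of Nfkb2/AK029443, 17 of Nr1h2, 22 of Srebf1, 15 of Srebf2 and 10 of Pck2. Their locus means were 0.458 to 0.692% at E18.5. Igf2, with 11 CpGs at 1.57% on average, was also low. Without these CpGs the shares would be higher and were not computed. The CpG 48 bp upstream fell by 36.7 points (SE 1.57, adjusted p = 1.34e-17), and the CpG inside TTACGTCA fell by 36.4 points (SE 1.74, adjusted p = 1.87e-16). The other 3 fell by 24.4 to 30.8 points. The smallest of the falls was that of the CpG 12 bp downstream, from 49.4% ± 1.40 (SD, n = 5) to 24.99% ± 1.74 (SD, n = 5).

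**Figure D1:**
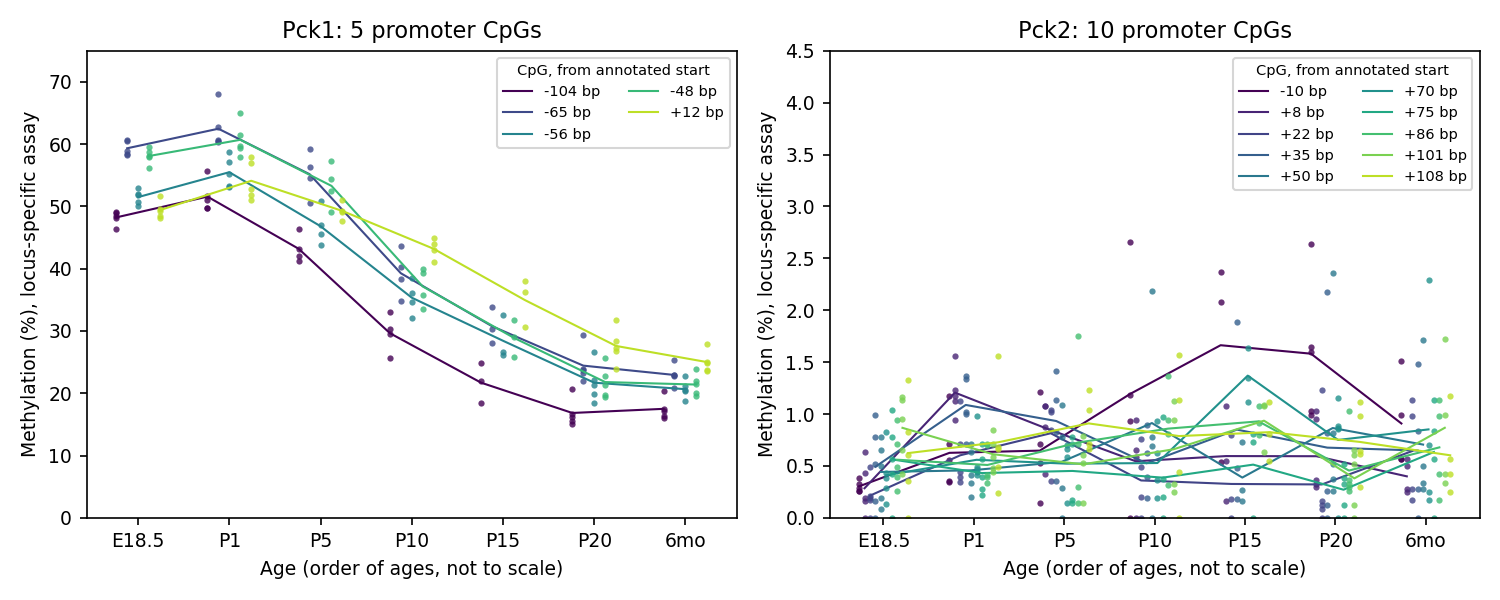
Methylation in percent (y axis) of each promoter CpG in each liver at 7 ages (x axis, in order and not to scale), Pck1 left and Pck2 right, on different y scales. Points are livers, lines join the mean of each CpG, and colours give the distance from the annotated start. All 5 Pck1 CpGs ran from 48.2 to 59.3% at E18.5 down to 17.51 to 24.99% at 6mo, while all Pck2 values stayed between 0 and 2.66%.

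The fall was placed in time by comparing each age with the next. Between E18.5 and P1 none of the 5 Pck1 CpGs was called, against 6.02% of all LSBS CpGs. Their differences were 2.63 to 4.70 points, all higher at P1, and 3 had an unadjusted p under 0.05. At 2 of them the adjusted p was under 0.1 (limma, 0.0300 at 12 bp downstream and 0.0912 at 56 bp upstream), with differences under 5 points. The SD between livers was 1.10 to 1.40 points at E18.5 and 2.43 to 3.30 points at P1.

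From P1 to P5, 4 of 5 CpGs were called lower, against 8.43% of all LSBS CpGs. The fifth, 12 bp downstream, fell by 4.84 points (SE 1.56, adjusted p = 0.0418 by limma), short of the difference required. From P5 to P10 all 5 were called lower, against 15.1% called lower and 20.5% called in either direction, with the largest step at the CpG 48 bp upstream, which fell by 16.2 points (SE 1.75). From P10 to P15 again all 5 were called lower, against 18.7% and 19.3%, by 6.95 to 8.52 points. From P15 to P20, 4 of 5 were called lower, against 15.7% and 22.9%. The exception in that interval was the CpG 104 bp upstream, which fell by 4.87 points (SE 1.63). From P20 to 6mo none was called, against 3.01%, and none had an unadjusted p under 0.05 (differences of -2.60 to 0.672 points). With 3 to 5 livers an age, exact permutation tests per CpG kept the P5 to P10 calls but called 0 from P1 to P5, 0 from P10 to P15 and 1 from P15 to P20. The livers of the 2 ages did not overlap, with the later age below, at 5 of 5 CpGs from E18.5 to 6mo (17.5% of all LSBS CpGs), at 5 from P1 to P5 (9.64%), at 5 from P5 to P10 (16.3%), at 4 from P10 to P15 (21.1%), at 1 from P15 to P20 (16.9%) and at none from P20 to 6mo (3.61%). From E18.5 to P1 the livers did not overlap at 2 CpGs, with P1 above (15.7%).

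Mean methylation of the 5 CpGs had moved 51.5% of the way from its E18.5 to its 6mo level by P10, 76.6% by P15 and 97.0% by P20. The 4 CpGs upstream of the GENCODE start had covered 52.3 to 60.5% of their own change by P10. The CpG 12 bp downstream of it, which lies 13 bp upstream of the RefSeq start, had covered 25.4% by then. In points, it had fallen by 6.22 (SE 1.04) from E18.5 to P10, against differences of -20.95 to -16.15 at the upstream CpGs. Its change was 9.93 to 14.7 points smaller than theirs, with a standard error of the difference of at most 2.47 to 2.95. These are upper bounds, because the values of 1 liver could not be joined over CpGs. At P10 the downstream CpG was the most methylated of the 5, at 41%, 43%, 43.9% and 44.9% in the 4 livers, whereas at E18.5 it ranked below 3 of the other 4.

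**Figure D2:**
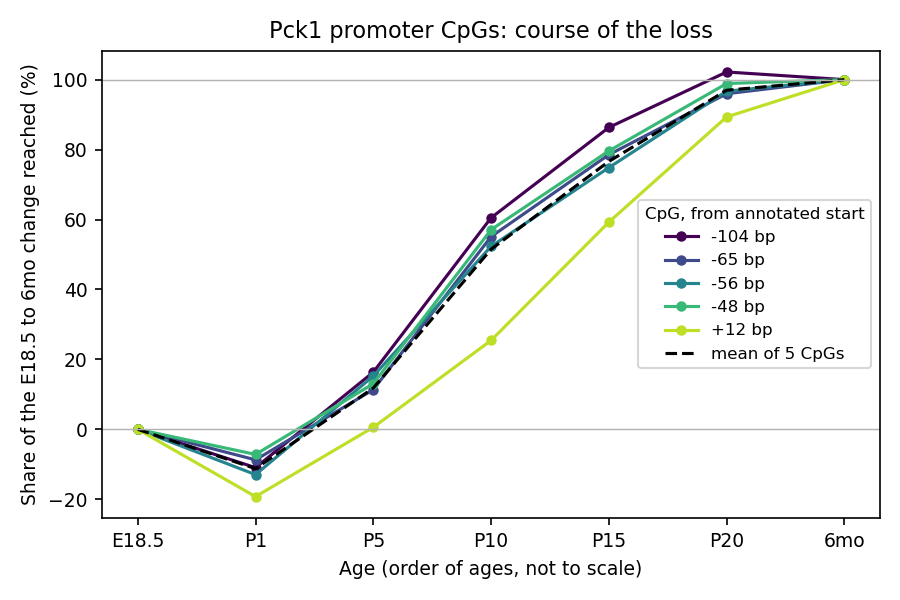
Share of the E18.5 to 6mo change that each Pck1 promoter CpG had reached (y axis, percent) at each age (x axis, in order and not to scale), with the mean of the 5 CpGs dashed. Negative values at P1 are levels above E18.5. The CpG 12 bp downstream of the GENCODE start stood at 25.4% by P10, below the 52.3 to 60.5% of the CpGs upstream of that start.

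At the Pck2 promoter, methylation was near 0 at every age. Its 300 values ran from 0 to 2.66%, with a median of 0.571%, and 8 of them exceeded 2%. A further 10 values, 1 for each CpG at 6mo, were missing. The mean over the 10 CpGs was 0.476% at E18.5, 0.682% at P1, 0.693% at P5, 0.676% at P10, 0.839% at P15, 0.663% at P20 and 0.694% at 6mo. The highest mean of any CpG at any age was 1.66% ± 0.983 (SD, n = 3), at P15, at the CpG 10 bp upstream (56159093). That CpG was at 0.303% ± 0.0517 (SD, n = 5) at E18.5.

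With no Pck2 value above 2.66%, a difference over 5 points, and so a call, was not possible. None of the 10 Pck2 CpGs was called by limma in any of the 7 comparisons. From E18.5 to 6mo none had an unadjusted p under 0.05, and the differences ran from -0.0207 to 0.605 points, with standard errors up to 0.414. A single CpG had an unadjusted p under 0.05 in each of the comparisons E18.5 to P1, P10 to P15 and P15 to P20. The first of these was the CpG 8 bp downstream (56159111), at 0.285% at E18.5 and 1.21% at P1, a difference of 0.920 points (SE 0.199, adjusted p = 0.00201 by limma) that is far under the 5 points required. With no read count beside a value in the files, differences of a fraction of a point could not be separated from conversion or sequencing error. From E18.5 to 6mo, the mean change at Pck1 minus that at Pck2 was -32.03 points, with a standard error of at most 1.85.

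Female and male livers did not separate the Pck1 promoter by the call used here, which Pck2 values were too low to meet. With sex as a term in the limma fit, none of the 166 LSBS CpGs was called, and 6 had an unadjusted p under 0.05, of which 2 were at Pck2 and none at Pck1. At the Pck1 CpG 48 bp upstream, male livers were 1.65 points lower than female livers (SE 0.895, adjusted p = 0.692 by limma).

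Among the other 16 loci, the mean changes from E18.5 of Acsl1, Mttp and Nr1i3 were most like those of Pck1, with root mean square differences of 2.59, 3.01 and 6.02 points over the 6 later ages. Acsl1 (long-chain acyl-CoA synthetase) fell from 53.9% to 19.2% and Mttp (microsomal triglyceride transfer protein, needed for lipoprotein assembly) from 62.0% to 24.8%. Nr1i3 (the nuclear receptor CAR) fell from 66.2% to 31.4%, but at P10 it was still at 61.2%, while Pck1 was at 36.9%. Most like Pck2 were Srebf2, Nr1h2 and Srebf1, genes of sterol and lipid regulators, with root mean square differences of 0.104, 0.104 and 0.142 points. These loci too began below 1%, with means of 0.597 to 0.692% at E18.5.

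**Figure D3:**
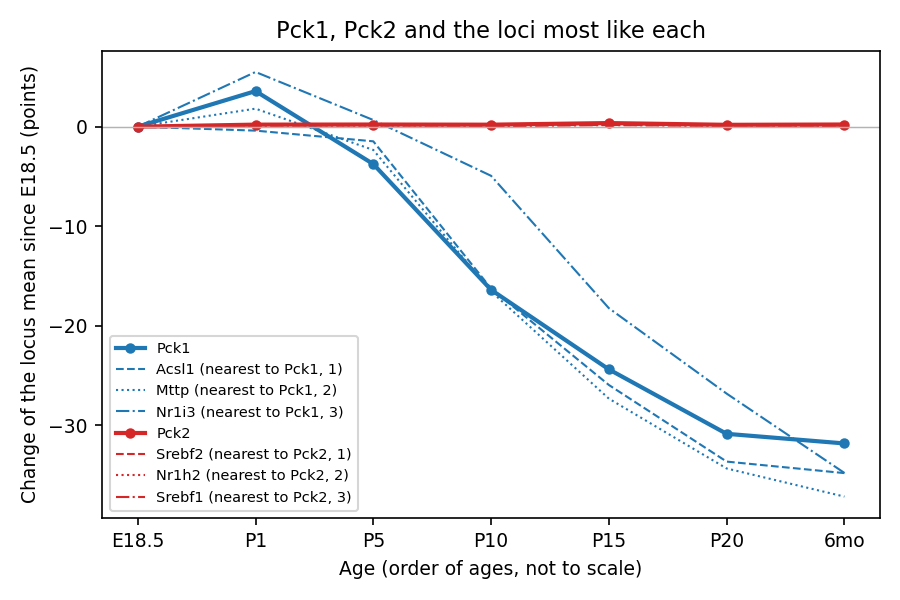
Change of the mean methylation of a locus since E18.5 (y axis, percentage points) by age (x axis, in order and not to scale) for Pck1 and its 3 nearest loci (blue) and Pck2 and its 3 nearest loci (red, nearly on top of each other at 0). Pck1, Acsl1 and Mttp fell together from P5 and Nr1i3 fell later.

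RRBS gave a second reading of both genes, with 1 cytosine in common. Some E18.5 titles of both assays carry the same numbers, so the readings may share livers. Its libraries differed in completeness: 0 to 0.193% of all cytosines lacked a value at E18.5, 0.0158 to 14.6% at P1 and 0.0214 to 40.9% at 9wk. The 3 libraries of 9wk that were deposited later (replicates 8, 9 and 10) lacked 31.5 to 40.9%. At the CpG 48 bp upstream of Pck1, RRBS values were 48.8%, 50%, 51.9%, 63.2% and 72.2% at E18.5. The 7 libraries of 9wk with a value there had a lowest of 7.69%, a median of 26.7% and a highest of 64.3%. The RRBS mean was thus 57.2% ± 10.1 (SD, n = 5) before birth and 29.3% ± 17.9 (SD, n = 7) in the adult. In LSBS this CpG stood at 58.1% ± 1.26 (SD, n = 5) and 21.4% ± 1.71 (SD, n = 5). RRBS libraries were more spread than LSBS livers, and a single 9wk library overlapped the E18.5 range. Neither table gives the read count behind a value, so no interval could be set on a single one. By the study's methods, RRBS values under a minimum coverage were set to missing.

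RRBS read 2 further Pck1 cytosines in the 5′ UTR of exon 1, 57 and 75 bp downstream of the start. At 57 bp they were 59.6%, 63.8%, 66.7%, 69.4% and 69.8% at E18.5, and at 9wk the lowest, median and highest of 9 libraries were 15.8%, 35% and 54.5%. At 75 bp the E18.5 values were 63.8%, 65.1%, 70.6%, 71.9% and 73.2%, and the 9wk values were 27.8%, 41.7% and 60%. Neither cytosine had a 9wk library inside the E18.5 range, as was true, with 9wk below, of 2 of the 4 Pck1 cytosines tested and of 3.01% of all CpGs tested. A cytosine in the 3′ UTR (172984721, exon 10, 6172 bp downstream) averaged 75.4% ± 8.53 (SD, n = 5) before birth and 40.6% ± 15.7 (SD, n = 7) in the adult. The fifth, in the coding part of exon 10 (172983830), stood at 81.7% ± 10.0 (SD, n = 5) and 58.5% ± 24.5 (SD, n = 6), and was not tested because too few libraries had a value.

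All 4 Pck1 cytosines tested were called lower at 9wk than at E18.5 (limma over 249729 CpGs), where 6.46% of all CpGs tested were called lower and 5.76% of those that began between 55 and 85%. Falls of over 30 points were called at 2 of the 4 and at 2.24% of all CpGs tested. The differences were -34.82 to -27.05 points, with standard errors of 4.58 to 7.67 and adjusted p between 0.000161 and 0.00691. Losses were the minority direction in these libraries: the median change of all CpGs tested was 9.68 points, and 58.5% were called higher. That balance rests on the scale, since after each library was divided by its mean over highly methylated CpGs, 17.2% were called higher and 13.4% lower. The 4 Pck1 calls were made on either scale.

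Averaged per library over the tested cytosines, Pck1 averaged 66.8% ± 2.43 (SD, n = 5) in the E18.5 group, with libraries from 62.9 to 68.9%. At 9wk it was 38.0% ± 9.83 (SD, n = 9), with libraries from 25.8 to 57.3%. The difference of -28.8 points (SE 3.45) had an exact permutation p of 0.0004995, the smallest that 5 against 9 libraries can give (two-sided, adjusted p = 0.000749 over 9 tests). Without the 3 later libraries it was -31.6 points (exact permutation p = 0.00126). That mean covers all 5 cytosines, since all could then be tested, against 4 in the main comparison. From E18.5 to P1 the Pck1 mean differed by -0.344 points (SE 2.16, exact permutation p = 0.893), and none of the 5 cytosines was called, against 0.552% of all CpGs tested, with 1 at an unadjusted p under 0.05. From P1 to 9wk, 2 of 5 cytosines had enough values to be tested, and both were called lower, against 7% of all CpGs. With only the 7 libraries of 9wk that were deposited first, all 5 could be tested and all 5 were called lower.

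**Figure D4:**
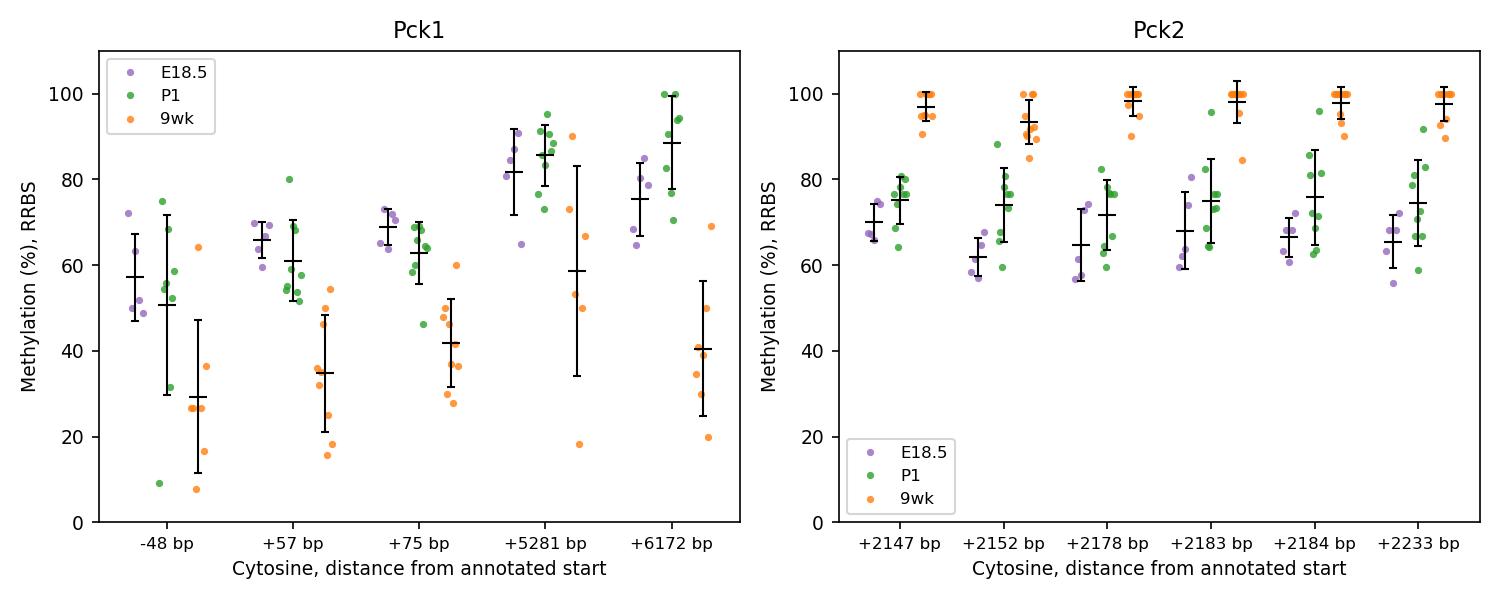
RRBS methylation (y axis, percent) of each Pck1 (left) and Pck2 (right) cytosine in each library of E18.5, P1 and 9wk, ordered by distance from the annotated start (x axis). Points are libraries and bars give the mean and SD. Pck1 cytosines were lowest at 9wk, whereas the 6 Pck2 cytosines rose to means of 93.4 to 98.2%.

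Losses were also read outside the window. The 4 cytosines 735 to 830 bp beyond the gene end, outside the members, stood at 33.1 to 69.6% on average at E18.5 and at 18.6 to 32.4% at 9wk. Another, 80 bp beyond the end, was low throughout, at 21.1% and 13.0%. On the upstream side the nearest cytosine beyond the window (172973085) was at 76.0% at E18.5 and 87.8% at 9wk. The 7 cytosines beyond that one (172968673 to 172969305) stood at 55.1 to 80.3% and at 17.5 to 49.2%. These are values only, with no test.

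The deposited RRBS values include no cytosine at the Pck2 promoter. By the study's methods, CpGs under 10% in all samples were removed, so this does not show that the promoter went unread. All 6 Pck2 members lay in coding exon 2, 2147 to 2233 bp downstream of the start. They are 5 CpGs, since 56161286 and 56161287 are the 2 strands of the same one. Only 56161250 and 56161336 lie in a CCGG site, so all 6 cytosines fall on the same MspI fragment. Counts of them, here and below, are therefore not counts of independent readings. There, methylation moved in the direction opposite to Pck1. At the cytosine 2178 bp downstream, E18.5 values were 56.8%, 57.7%, 61.5%, 72.9% and 74.2%, and the 10 libraries of 9wk ran from 90% to 100% with a median of 100%. No 9wk library overlapped E18.5 at any of the 6 cytosines, as was true, with 9wk above, of 19.3% of all CpGs tested and of 21.2% of those that began between 60 and 75%. E18.5 means were 61.85 to 69.97%, P1 means 71.6 to 75.8% and 9wk means 93.4 to 98.2%.

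All 6 Pck2 cytosines were called higher at 9wk than at E18.5, by 27.03 to 33.59 points, with standard errors of 2.59 to 3.58 and a largest adjusted p of 4.26e-06 (limma). Gains were common: 58.5% of all CpGs tested were called higher, and 65% of the 58335 CpGs that began between 60 and 75%. Gains of over 30 points were called at 4.69% of all CpGs tested, and the median gain of CpGs that began between 60 and 75% was 13.6 points. The 6 cytosines averaged 66.1% ± 5.78 (SD, n = 5) per E18.5 library, from 60.2 to 73.5%, and 97.0% ± 1.41 (SD, n = 10) per 9wk library, from 95.7 to 100%. It rose by 30.9 points (SE 2.62, exact permutation p = 0.000333, adjusted p = 0.000749), or by 24.2 points on the divided scale. Without the 3 later libraries it rose by 30.9 points (exact permutation p = 0.00126).

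At P1 the Pck2 cytosines lay between the other ages. Per library they averaged 74.3% ± 5.93 (SD, n = 9), 8.25 points above E18.5 (SE 3.25, exact permutation p = 0.0310, adjusted p = 0.0398), while the median change of all CpGs was 3.74 points. Libraries of E18.5 and P1 overlapped, none of the 6 cytosines was called by limma, against 0.552% of all CpGs tested, and 1 had an unadjusted p under 0.05. On the divided scale the difference was 5.14 points and missed the threshold (exact permutation, adjusted p = 0.183). From P1 to 9wk all 6 were called higher, against 36.1% of all CpGs, with a difference of the means of 22.7 points (SE 2.03, exact permutation p = 1.08e-05, adjusted p = 9.74e-05).

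Pck1 and Pck2 started level in RRBS and ended far apart. The mean of Pck1 minus that of Pck2 came to 0.776 ± 6.06 points (SD, n = 5) before birth, and libraries ran from -6.68 to 7.48. At 9wk it was -59.1 ± 9.70 points (SD, n = 9), from -72.4 to -41.1. The change of -59.8 points (SE 4.22) had an exact permutation p of 0.0004995 and an adjusted p of 0.000749. It compares the ends of Pck1 with an internal exon of Pck2, not promoter with promoter.

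**Figure D5:**
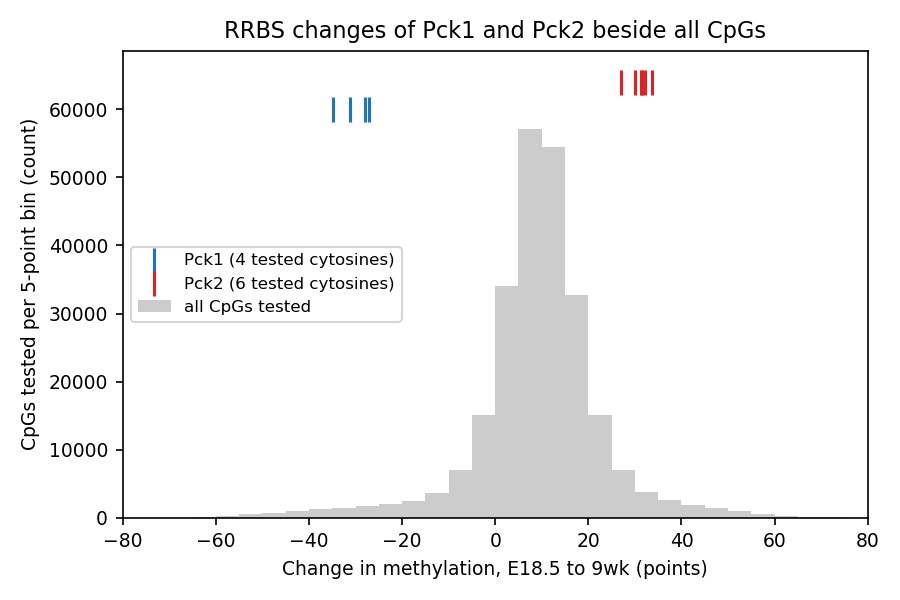
Number of CpGs tested (y axis, count) by change in RRBS methylation from E18.5 to 9wk (x axis, percentage points, 5-point bins, grey). Marks above the bars are the 4 Pck1 cytosines tested (blue, -34.82 to -27.05) and the 6 Pck2 cytosines (red, 27.03 to 33.59), on either side of the bulk around a median of 9.68.

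Other genes of the pathway were read by RRBS from 5 kb upstream to their ends. Of 18 other gluconeogenic enzymes and carriers, 10 had tested CpGs. Of 115 CpGs, 53 (46.1%) were called higher and 22 (19.1%) lower from E18.5 to 9wk, beside 58.5% and 6.46% of all CpGs tested. The mean was higher at 9wk at 5 of these genes and lower at 5. The largest mean gain was at Pcx (pyruvate carboxylase, which makes the oxaloacetate that both enzymes use), with 31 of 44 CpGs called higher and a mean change from 54.2% to 76.2%. The largest mean loss was at Got1 (cytosolic aspartate aminotransferase), from 72.3% to 58.1%, with 10 of 24 CpGs called lower and 3 higher. The count of losses depended on the scale, and on the divided scale 23 CpGs were called higher and 35 lower. There the means of Fbp1, Eno1 and Gpi1 changed by -6.01, -0.547 and -5.47 points, reversed from gains. The other genes kept their direction.

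Of 12 regulators of gluconeogenic genes, 11 had tested CpGs, with 49 of 129 called higher and 44 lower, or 34.1% lower against 6.46% of all CpGs tested. On the divided scale 10 were called higher and 55 lower. The largest mean loss was at Ppara (the fatty acid-sensing receptor PPAR alpha), from 59.3% to 19.3%, with 7 of 8 CpGs called lower. The largest mean gain was at Ppargc1a (the coactivator PGC-1 alpha), from 74.6% to 91.2%, with 5 of 5 called higher and 1 of these on the divided scale. Of 5 liver glycolysis genes, 27 of 56 CpGs (48.2%) were called higher and 10 (17.9%) lower, but 3 higher and 18 lower on the divided scale. Among these genes the largest mean gain was at Pfkfb1 (which sets fructose 2,6-bisphosphate), from 38.6% to 50.7%, and the largest loss at Pklr (liver pyruvate kinase), from 75.2% to 63.6%.

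Genes that mark cell types were read in the same way, and their shares stand beside 58.5% of all CpGs called higher and 6.46% lower, or 17.2% and 13.4% on the divided scale. Of 10 hepatocyte genes, 6 had tested CpGs, and 13 of 21 (61.9%) were called lower and 1 higher, or 16 and 0 on the divided scale. All 4 fetal liver genes had tested CpGs, with 23 of 34 (67.6%) called higher and 3 lower, or 10 and 3 on the divided scale. Of 12 blood-forming genes, 9 had tested CpGs, with 90 of 194 (46.4%) called higher and 33 (17%) lower, or 52 and 50 on the divided scale. The mean of a blood-forming gene was higher at 9wk at 7 genes and lower at 2. This split depended on the scale. On the divided scale the means of Gata2, Tal1 and Runx1 changed by -2.77, -6.59 and -5.94 points, reversed from gains. The other blood-forming genes kept their direction. The files hold methylation and not RNA, so the cell types themselves could not be checked by expression, and the part of the cell mix in the Pck1 and Pck2 changes was not tested.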

How the data were processed

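DNA methylation was measured in whole liver by LSBS in 31 samples and by RRBS in 24. Per the submitters' processing notes, reads were processed with Bismark 0.7.6 and Bowtie2 on mm9. The deposited LSBS values are the percent of methylated reads per CpG and liver, and the deposited RRBS values are the fraction of methylated reads per cytosine and library, made by the authors without scaling between libraries. Fractions were multiplied to percent here. Neither table gives read counts, so precision rests on the spread between samples, and no source used here says whether 2 samples of a group share a litter. In the LSBS table, rows carry age and sex but no animal, and 830 values at an age with no matching sample were not used. A second copy of the RRBS table, placed on mm10, was left aside, as were the authors' tables of differences, p-values and q-values between ages.

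LSBS CpGs were fitted with limma 3.58.1 (R 4.3.3) over all 7 ages. RRBS cytosines were fitted for the 2 ages compared, over cytosines with values in at least 80% of those libraries. Cytosines under 10% in every library were also left out, a filter added to the written design. Without it the Pck1 and Pck2 calls were the same. The mean per library needed 50% of a gene's tested cytosines and was compared by exact two-sided permutation, with Benjamini-Hochberg adjustment over 9 tests. The divided scale used 30431 cytosines above 80% on average. Scripts were tested on simulated data.

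Every member is named, with the 3 LSBS loci of smallest root mean square difference, and from each pathway list the gene of largest mean gain and loss. Members and lists were chosen with earlier results of these data known. Alternatives covered the threshold, the minimum difference, scaling, log2 odds, missing values, sex, the window, the libraries deposited first, exact tests and leaving out samples. Dropping the filter on low levels and centring each cytosine before averaging were alternatives chosen after seeing the data. Genes were placed with GENCODE vM1 on mm9, and promoter windows came from RefSeq.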

Additional observations from a re-analysis of the deposited data

Results flagged for a closer look

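Sets of 4 to 10 samples were searched for a highest or lowest value set apart from the rest by Dixon's criterion, which chance alone meets in about 5% of sets. Of the LSBS sets, 6 of 60 at Pck2 and 1 of 30 at Pck1 met it. Of the RRBS sets, 2 of 18 at Pck2 and 1 of 15 at Pck1 met it, and none of the 3 sets of means per library did for either gene.

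At the Pck1 CpG inside TTACGTCA (172978484), 1 liver of P20 measured 29.4% and the next highest 23.9%. At the Pck1 cytosine 75 bp downstream (172978624), 1 RRBS library of P1 measured 46.2% and the next lowest 58.3%.

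The LSBS values at the Pck2 promoter were all under 3%. At P20, 1 liver measured 1.23% at 56159125, where the next highest was 0.164%, 1 measured 2.36% at 56159153 (next 0.822%), and 1 measured 1.03% at 56159189 (next 0.369%). At 56159173, the lowest liver of P20 was at 0% with the next at 0.86%, and the highest of P1 was at 0.977%. At 56159153, 1 liver of 6mo measured 1.71% and the next 0.495%. In exon 2, the lowest RRBS library of 9wk was at 90% at 56161281 (next 94.7%) and at 84.6% at 56161286 (next 95.5%).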

How the results depend on the processing

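Of 192 values recomputed under another setting, 180 stayed the same, and of 364 values with 1 sample left out, 328 did. A mean difference stayed the same if it kept its direction and side of the threshold. A count of calls did so if it equalled the main count or lay within a fixed ratio of it. These tallies include the Pck2 LSBS counts, which could only be 0 under the 5-point minimum. The Pck1 falls and Pck2 gains from E18.5 to 9wk and the Pck1 fall from E18.5 to 6mo were called, at every CpG tested, under every setting that gave a value. With no minimum difference, 2 Pck1 and 1 Pck2 LSBS CpGs were called from E18.5 to P1 and 1 Pck2 CpG from P10 to P15. Exact permutation tests per CpG called 0 Pck1 CpGs from P1 to P5, 0 from P10 to P15 and 1 from P15 to P20. These groups of 3 to 5 livers limit how small such a p can be. With the 9wk libraries deposited first, 5 Pck1 cytosines were called from P1 to 9wk, against 2, since more passed the filter on missing values. The E18.5 to P1 steps of RRBS were the least stable. The Pck1 mean difference was 0.22 as log2 odds, reversed from -0.344 points. That of Pck2 was 5.14 points on the divided scale (exact permutation, adjusted p = 0.183). Pck1 minus Pck2 was -8.60 points at a threshold of 0.05, -10.1 on the divided scale and -0.41 as log2 odds, and missed the threshold in each.

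With 1 sample left out, E18.5 to P1 gave 0 to 1 LSBS Pck1 calls, and RRBS gave 2 to 4 Pck1 calls from E18.5 to 9wk (2 without any of 10 of the 15 libraries, namely each of E18.5 and 9wk replicates 2, 4, 5, 6 and 7) and 2 to 4 from P1 to 9wk, as the number of cytosines passing the filter changed. The E18.5 to P1 differences ran from -1.17 to 0.887 points for Pck1, 6.78 to 10.1 for Pck2, and -11.3 to -6.37 for Pck1 minus Pck2. Pck1 minus Pck2 missed the threshold without any 1 of 10 of the 14 libraries, those of E18.5 replicates 1 to 4 and P1 replicates 1 and 5 to 9 (exact permutation, adjusted p = 0.103 to 0.225). Pck2 missed it without E18.5 replicate 1 or replicate 3 (exact permutation, adjusted p = 0.101 and 0.104). No Pck1 cytosine had a value in every library of E18.5 and 9wk, or of P1 and 9wk, so that setting gave no value there. No paired analysis was possible because each liver was taken at a single age and LSBS rows name no animal, so replicate numbers pair nothing.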
